A study of Mus musculus with 16 samples.

Results

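The nuclear genes of oxidative phosphorylation were examined in RNA-Seq data of splenic B-cells. A gene belonged to the set if its symbol starts with Ndufa, Ndufb, Ndufc, Ndufs, Ndufv, Uqcr, Cox4, Cox5, Cox6, Cox7, Cox8 or Atp5, or is Sdha, Sdhb, Sdhc or Sdhd, and if its mean over the 16 libraries was above 1 RPKM (reads scaled by exon length and by the mapped reads of the library). Of 38355 genes in the table, 94 matched a symbol and 85 of these passed the mean, and all 85 could be tested. They comprised 36 subunits of complex I, 4 of complex II, 8 of complex III, 12 of complex IV (with Ndufa4, whose protein is now placed there) and 15 of complex V. The symbols also took in 10 genes whose products are not subunits. These were 8 assembly factors of complex I (Ndufaf1 to Ndufaf7 and Atp5sl), the ATP synthase coupling factor B gene Atp5s, and Cox7a2l. The product of Cox7a2l is described as a factor for supercomplexes of complexes III and IV, and its activity in these mice was not tested. Genes encoded on the mitochondrial genome were not analysed here.

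The libraries came from transitional 1 (T1), transitional 2 (T2), marginal zone (MZ) and follicular (FO) B-cells of wild-type (WT) and Mir146a-/- (KO) mice, both C57BL/6, with 2 replicates in each of the 8 groups. Each sample was sorted from the pooled spleens of several mice, so p-values measure the spread between such pools, and the age of the mice is not in the sample labels. Cells were sorted as CD23- AA4+ IgM high (T1), CD23+ AA4+ IgM high (T2), CD23- AA4- IgM high CD21 high (MZ) and CD23+ AA4- IgM low (FO). Where the 4 libraries of a subset are listed below, their order is WT replicate 1, WT replicate 2, KO replicate 1 and KO replicate 2.

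Oxidative phosphorylation takes place in the inner mitochondrial membrane. Complexes I and II pass electrons from NADH and succinate to ubiquinone, complex III passes them to cytochrome c, and complex IV gives them to oxygen. Complexes I, III and IV pump protons, and complex V, the ATP synthase, uses the proton gradient to make ATP. Most of the subunits are encoded in the nucleus and imported, and a few core ones of the proton-moving complexes are encoded and made inside the mitochondrion. Dedicated assembly factors build complex I from modules and do not stay in the finished enzyme. Resting B-cells draw ATP largely from this pathway, and activated B-cells raise both respiration and glycolysis.

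The scaling totals were 9003343 to 26386684 reads per library, and Spearman's correlation between replicates was 0.961 to 0.987. Mir146, the deleted gene, had 0.583 RPKM and 0.656 RPKM in the WT FO libraries and was listed at 0 in the other 14 libraries, so it could not check the genotype labels. B-cell markers were high in all subsets (summed 5542 to 8472 RPKM per library), and T and NK cell markers summed to 7.49 to 51.7 RPKM. Immunoglobulin genes took 3.13%, 9.08%, 4.64% and 10.96% of the reads in the T1 libraries and 1.1% to 1.49% elsewhere, and summed plasma cell markers were at 825 to 4588 RPKM in T1 against 233 to 668 RPKM in the other subsets. Myeloid markers summed to 28.7 to 197 RPKM per library (T1), 103 to 170 (T2), 26.5 to 76.6 (MZ) and 14.8 to 49 (FO). The part of these differences in the results below was tested only through rescaling and left-out libraries. In bulk samples, fewer cells of a type and less RNA per cell cannot be told apart.

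The 85 genes were expressed at moderate to high levels in every subset, and their summed level was nearly the same in all subsets. The median gene had a mean of 29.4 RPKM, 5 genes were over 100 RPKM, 62 lay from 10 to 100 RPKM and 18 were under 10 RPKM. The highest were Atp5a1 (144 RPKM), the α subunit of the ATP synthase head, Cox8a (122 RPKM), Cox6b1 (119 RPKM), Atp5b (115 RPKM), the catalytic β subunit, and Ndufa4 (111 RPKM). At the low end of the set were Cox7a1 (1.49 RPKM), the heart and muscle form of COX7A, and Ndufb2 (2.04 RPKM), a small complex I subunit. Just below the limit lay Cox6a2 (0.546 RPKM) and Cox6b2 (0.447 RPKM). Levels of different genes depend on the exon length the authors used: in 13 of the 43 genes for which it could be set beside the principal transcript, it was over 2 times as long.

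Summed over the 85 genes, T1 libraries reached 3003 ± 206 RPKM, T2 libraries 3212 ± 212 RPKM, MZ libraries 3221 ± 151 RPKM and FO libraries 3208 ± 76.2 RPKM (SD, n = 4 libraries of both genotypes), and single libraries ranged from 2761 to 3447 RPKM. The ranges of the 4 subsets overlapped. After rescaling without the reads of immunoglobulin genes, T1 came to 3238 ± 341 RPKM and the other subsets to 3247 to 3262 RPKM. The lower mean of T1 was no longer seen, but its libraries lay apart, at 2998, 3476, 2896 and 3580 RPKM. Replicate 1 of both genotypes was still under every library of the other subsets (3067 RPKM or more). Replicate 2 exceeded replicate 1 in the median gene of the set in 7 of the 8 groups, by 0.06 to 0.19 on the log2 scale, with KO FO at -0.03. Summed T and NK cell markers were also higher in replicate 2 in all 8 groups, and summed myeloid markers in 7, and their part in these shifts was not tested. These shifts reach the size of the median difference between subsets given below.

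**Figure D1:**
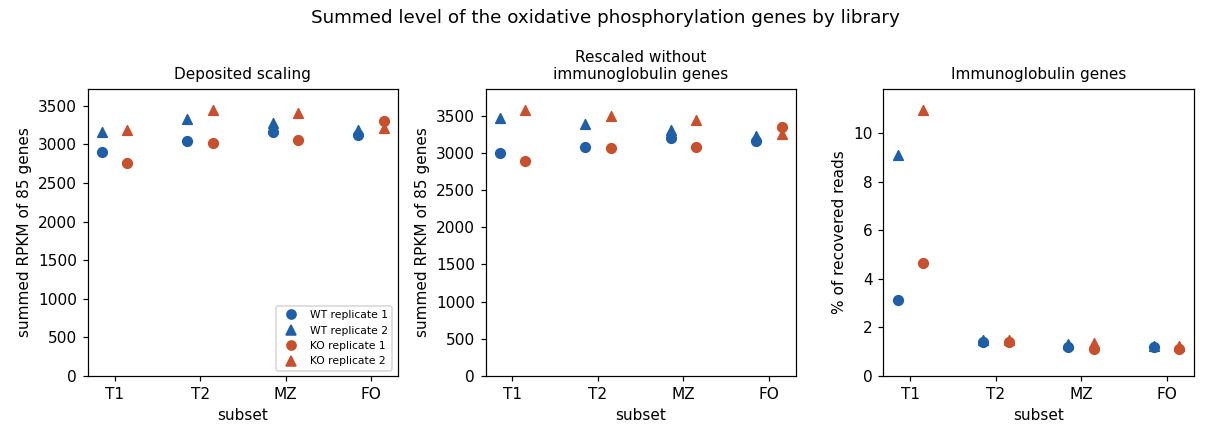
Summed RPKM of the 85 genes in each library, by subset, with the deposited scaling (left) and after rescaling without the reads of immunoglobulin genes (middle). The right panel gives the percent of reads from immunoglobulin genes. Colours give genotype and shapes the replicate. The deposited sums lie between 2761 and 3447 RPKM. As a group, the 4 T1 libraries stand apart only in the immunoglobulin share (3.13% to 10.96%, against 1.1% to 1.49%). After rescaling they include the lowest (2896 RPKM, KO replicate 1) and the highest sum (3580 RPKM, KO replicate 2) of all libraries.

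To see what the genes share in sequence beyond their symbols, promoters of 250 bases before to 50 bases after the start were taken from RefSeq (GRCm38.p6), matched by symbol for 73 of the 85 genes. The factors NRF1, GABPA and YY1 are known activators of nuclear respiratory genes. Exact matches on both strands were sought for CCGGAAG (the ETS site that GABPA binds), AAGATGGC (YY1) and the NRF1 palindrome, which is GCGCA followed by its reverse complement. The ETS letters were in 16 promoters (21.9%, against 8.86% of all 32851 promoters), the YY1 letters in 10 (13.7%, against 2.75%) and the NRF1 palindrome in 7 (9.59%, against 0.971%). At least 1 of the motifs was in 31 (42.5%, against 11.9%). The ETS letters end as the YY1 letters begin (AAG), so matches of the pair can overlap, but in the set they shared no promoter. The promoters of Cox6a1 and Atp5k held both the ETS letters and the NRF1 palindrome. The 32851 promoters were not limited to expressed genes, as the set was, so these shares compare unlike sets. Whether expressed genes outside the set have similar shares was not tested. A match is a description of letters and not a binding site, and no match says nothing of the factor.

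The 7 NRF1 matches are printed because the palindrome was the motif most over the share of all promoters and because they include Ndufaf4, Atp5g2 and Uqcrc1, described below. Each stretch has 30 bases on GRCm38.p6, in the direction of the gene, with the palindrome in capitals. Ndufa11 lies at chr17:56717692-56717721 (+), Ndufaf4 at chr4:24897960-24897989 (+), Ndufaf5 at chr2:140170652-140170681 (+), Uqcrc1 at chr9:108936668-108936697 (+), Cox6a1 at chr5:115349101-115349130 (-), Atp5g2 at chr15:102671070-102671099 (-) and Atp5k at chr5:108434430-108434459 (-). In Ndufaf5 and Uqcrc1 the match is within the 50 bases after the start, and in the others it is before the start.
Ndufa11: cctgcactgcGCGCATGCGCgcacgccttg
Ndufaf4: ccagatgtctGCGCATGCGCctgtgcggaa
Ndufaf5: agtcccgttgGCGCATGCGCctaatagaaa
Uqcrc1: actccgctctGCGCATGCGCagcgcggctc
Cox6a1: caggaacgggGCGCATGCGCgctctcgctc
Atp5g2: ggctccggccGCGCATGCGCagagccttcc
Atp5k: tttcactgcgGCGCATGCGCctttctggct

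For Ndufaf4 and Atp5sl, which had the largest rise and the largest fall among the comparisons below, the whole 250 bases before the start are shown, with motif letters in capitals. Ndufaf4 (chr4:24897833-24898082, + strand) has the NRF1 palindrome starting 113 bases before the start. Atp5sl, named Dmac2 in RefSeq (chr7:25619164-25619413, + strand), has none of the 3 motifs in these bases and a YY1 match in the 50 bases after them.
Ndufaf4: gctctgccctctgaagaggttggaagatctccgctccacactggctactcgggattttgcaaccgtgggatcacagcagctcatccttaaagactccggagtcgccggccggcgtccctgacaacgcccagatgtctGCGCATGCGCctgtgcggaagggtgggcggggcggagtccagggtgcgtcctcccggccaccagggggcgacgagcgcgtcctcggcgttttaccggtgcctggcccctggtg
Atp5sl: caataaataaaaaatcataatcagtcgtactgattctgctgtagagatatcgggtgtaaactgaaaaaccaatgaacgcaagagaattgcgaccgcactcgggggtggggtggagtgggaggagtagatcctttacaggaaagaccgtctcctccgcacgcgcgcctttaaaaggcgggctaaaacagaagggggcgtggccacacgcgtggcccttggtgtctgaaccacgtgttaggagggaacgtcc

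To follow the genes through B-cell maturation, each pair of neighbouring subsets was compared with limma on log2(RPKM + 0.5), with the WT and KO differences averaged. A gene passed if its Benjamini-Hochberg adjusted p over all 12507 tested genes was under 0.05. Over the 4 comparisons (T1 to T2, T2 to MZ, T2 to FO and FO to MZ), 39 of the 85 genes (45.9%) passed at least once, where 62.2% of all tested genes did, and 46 never did. None passed beyond 2-fold, where 5.44%, 10.9%, 1.16% and 9.32% of all tested genes did. The 39 passed 57 times, and all 57 differences had the same sign in the WT and in the KO libraries alone. Since the calls were made on the mean of both genotypes, equal signs are favoured by the choice and are no independent support. In WT alone 14 of the 57 were kept, and in KO alone 4. In 22 of the 57 the call was kept whichever 1 of the 16 libraries was left out, and these are given most room below. The comparisons share libraries and are not independent of each other. The median size of a difference (its absolute log2 value) was 0.146, 0.149, 0.142 and 0.151 in the 4 comparisons, below that of all tested genes (0.220, 0.301, 0.194 and 0.273).

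**Figure D2:**
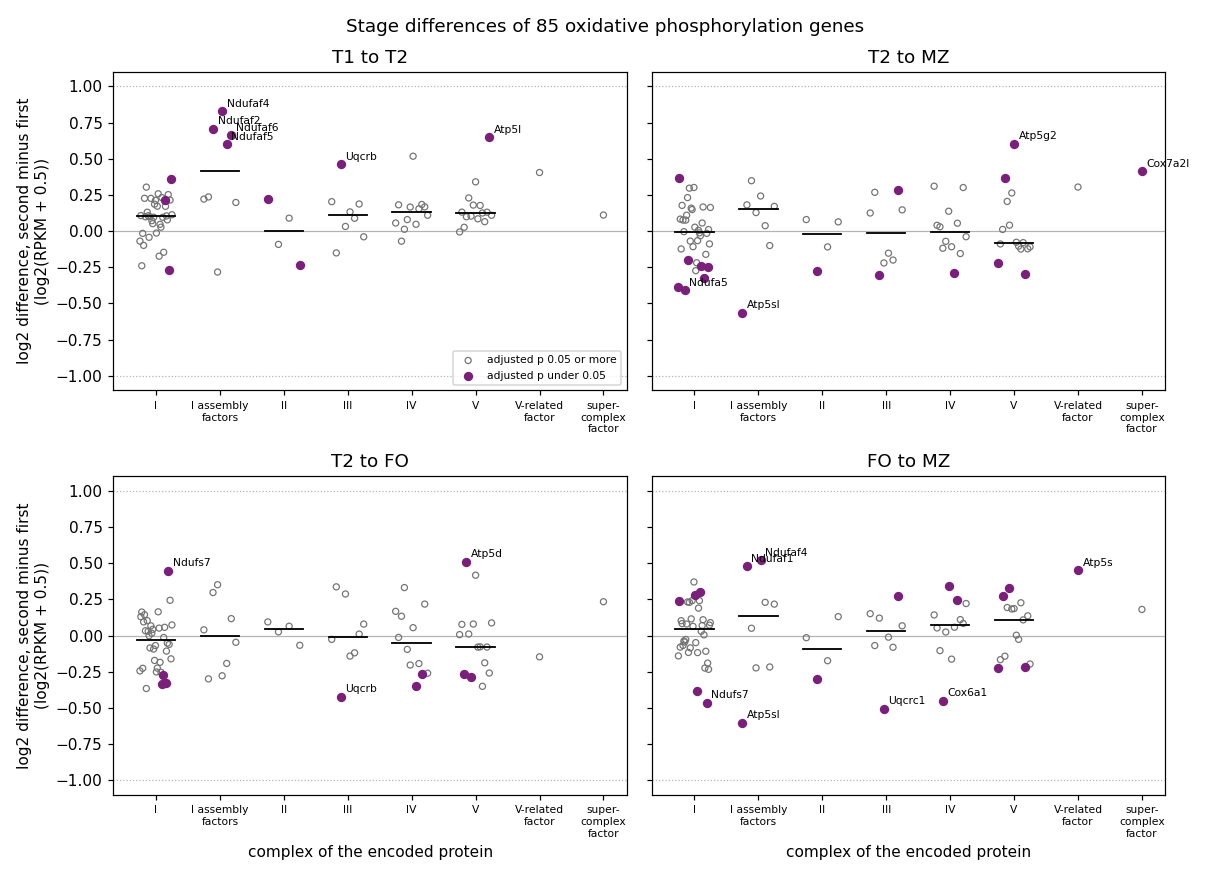
Log2 difference of each of the 85 genes in the 4 stage comparisons, grouped by complex; filled points passed (adjusted p under 0.05), horizontal bars are group medians, dotted lines mark 2-fold. No point lies beyond 2-fold; the highest is Ndufaf4 from T1 to T2 (0.83) and the lowest Atp5sl from FO to MZ (-0.60).

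From T1 to T2, 4 assembly factors of complex I rose, and these were the largest changes among the complex I genes. In all, 9 of the 85 genes rose, where 16% of all tested genes did, and 2 fell, where 9.94% did. The median difference was 0.11 for the set and 0.08 for all tested genes. Of the 10 factor genes, 4 rose and none fell (median difference 0.32), and of the 75 subunit genes, 5 rose and 2 fell (median 0.11). All libraries of T2 lay above all of T1 in 10 genes (16% of all tested genes) and below in 2 (9.56%).

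Ndufaf4 (ENSMUSG00000028261, chr4:24898083-24905001, + strand, GRCm38), which helps to build the ubiquinone-binding module of complex I, was at 3.47, 3.91, 3.99 and 4.97 RPKM in T1 and at 7.63, 6.40, 8.51 and 7.93 RPKM in T2. Every T2 library was above every T1 library. The log2 difference was 0.83 ± 0.13 (SE; adjusted p = 0.00108), and 0.84 and 0.81 in WT and KO alone. Ndufaf5, the hydroxylase of the core subunit encoded by Ndufs7, was at 4.05, 3.58, 4.6 and 4.64 RPKM in T1 and at 6.46, 8.29, 5.68 and 6.32 RPKM in T2. Its libraries did not overlap either, and it rose by 0.60 ± 0.09 (adjusted p = 0.000984). Ndufaf6, another early factor, had 2.32, 2.62, 2.1 and 2.07 RPKM in T1 and 2.79, 4.64, 4.04 and 4.32 RPKM in T2, a rise of 0.66 ± 0.13 (adjusted p = 0.0044) without overlap.

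Ndufaf2 (chr13:108002715-108158623, - strand), a late-acting chaperone of complex I, went from 2.47, 4.24, 1.85 and 3.16 RPKM in T1 to 4.09, 5.51, 4.9 and 5.24 RPKM in T2. Here the second WT library of T1 lay above the lowest T2 library, and the rise was 0.71 ± 0.17 (adjusted p = 0.0123). Without both T1 replicate 2 libraries, the ones richest in immunoglobulin reads, it was 1.04 (adjusted p = 0.000696), beyond 2-fold, and this alternative was chosen after the data were seen. Its exons share 65.6% of their bases with B230220B15Rik on the opposite strand, and the library kit did not keep strand, so reads of the pair cannot be told apart. The other factor genes did not pass, among them Ndufaf3, the partner of Ndufaf4, which was at 11.8 RPKM in T1 and 9.67 RPKM in T2 (-0.28 ± 0.11, adjusted p = 0.0723).

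Among the subunit genes, Uqcrb (chr13:66900617-66905378, - strand), a small subunit of complex III, rose from 25.2, 31.7, 33.4 and 32.9 RPKM to 41.1, 44.2, 40.4 and 43.9 RPKM, with a log2 difference of 0.46 ± 0.09 (adjusted p = 0.00447). Stretches that match 4 annotated pseudogenes make up 31.3% of its 100-base windows, so its reads are in part uncertain. Atp5l, the g subunit of the ATP synthase, went from 7.18, 5.21, 6.48 and 10.8 RPKM to 10.2, 15.1, 11.1 and 10.3 RPKM (0.65 ± 0.16, adjusted p = 0.0135), and its call was lost without WT T2 replicate 2 (0.51, adjusted p = 0.0518). Ndufv2 (0.36), a core subunit of the NADH-binding module, and Ndufs3 (0.21) also rose, and Ndufs8, a core iron-sulfur subunit, fell (-0.27, adjusted p = 0.0405). The calls of Ndufs3 and Ndufs8 were each lost in 12 of the 16 fits without 1 library, and that of Ndufv2 in 3.

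The 4 genes of complex II, the one complex made wholly from nuclear genes, did not move together. Sdha, the flavoprotein that holds the active site, rose from 51.3, 52.9, 56.1 and 53.6 RPKM to 59.7, 62.8, 60.9 and 65.9 RPKM (0.22 ± 0.06, adjusted p = 0.0161). Sdhd, a membrane anchor, fell from 45.8, 48, 47.2 and 47.7 RPKM to 41.1, 37.2, 41.6 and 40.1 RPKM (-0.24 ± 0.06, adjusted p = 0.0159). Both changes were without overlap, and neither Sdhb (-0.09 ± 0.07), the iron-sulfur subunit, nor Sdhc (0.09 ± 0.10), the other anchor, passed. Without both T1 replicate 2 libraries Sdha and Sdhd kept their directions (0.21 and -0.22) but no longer passed (adjusted p = 0.0518 and 0.0711). Sdha also did not pass without KO T2 replicate 2 (0.19, adjusted p = 0.0562) or after rescaling without immunoglobulin genes (0.11, adjusted p = 0.251), and Sdhd did under both.

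These counts depended on the T1 libraries and on the scaling. Without both T1 replicate 2 libraries 17 genes rose and 0 fell, and after rescaling without immunoglobulin genes 7 fell. Here and below, shares of all tested genes are given for the main fit only. Counts under other settings therefore do not show whether the set moved apart from other genes. In the fits, the rescaling divided each library by the summed RPKM of its other genes, and not by reads. That rescaling moved the median of all tested genes from 0.08 to -0.02 and that of the set from 0.11 to 0.003, and the number of its genes with a difference above 0 from 69 (61.3% of all tested genes were above 0) to 43. Ndufaf2, Ndufaf4, Ndufaf5, Ndufaf6 and Uqcrb still rose under it. With each single library left out, these 5 and Sdhd kept their calls. Over the same step 6 of 9 plasma cell markers fell and 3 of 14 myeloid markers rose, and their part in the counts was tested only as described here.

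**Figure D3:**
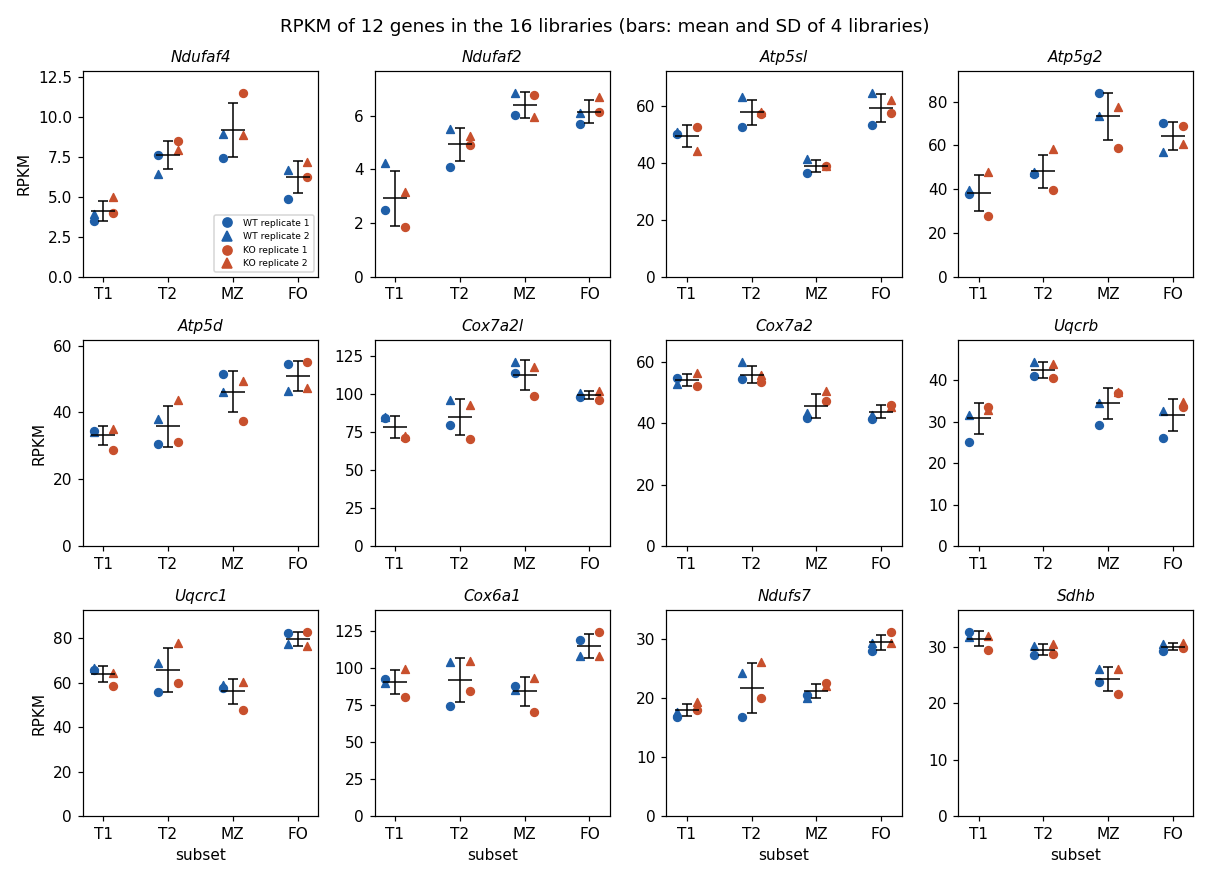
RPKM of 12 genes in all 16 libraries by subset; blue is WT and orange KO, circles are replicate 1 and triangles replicate 2, and black bars give the mean and SD of 4 libraries. Ndufaf4 is lowest in T1 (3.47 to 4.97 RPKM), Atp5sl lowest in MZ (36.3 to 41.2 RPKM) and Uqcrc1 highest in FO (76.6 to 82.8 RPKM).

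From T2 to MZ, 5 of the 85 genes rose (22.8% of all tested genes did) and 12 fell (19.6% did). This balance depended on the scaling. Quantile normalization gave 13 higher and 9 lower. Scaling without immunoglobulin genes gave 3 and 16 (4 and 21 with the replicate block). That scaling, by the summed RPKM of the other genes, moved the median of all tested genes from 0.02 to -0.05. Immunoglobulin genes took only 1.1% to 1.49% of the reads in T2 and MZ, so these counts do not show an effect of immunoglobulin reads. Fewest rose without the first KO library of T2 (2), most without the second WT library of T2 (10), and fewest fell without the first WT library of MZ (6). The median difference was 0.005 for the set and 0.02 for all tested genes. Of the 12 that fell, 6 encode complex I subunits, and the others were Sdhb, Uqcrb, Cox7a2, Atp5a1, Atp5k and the assembly factor gene Atp5sl. The calls of Atp5sl, Cox7a2, Cox7a2l, Ndufa10, Ndufs1, Ndufs4, Sdhb and Atp5k were kept whichever library was left out, and the other 9 were lost without 1 library in 3 to 11 of the 16 fits. MZ libraries all lay above those of T2 in 8 genes (22.5% of all tested genes) and below in 14 (19.8%).

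Atp5sl (ENSMUSG00000057229, chr7:25619414-25625551, + strand), whose product DMAC2 helps to assemble the distal membrane arm of complex I, was at 52.5, 63.1, 57.1 and 57.6 RPKM in T2 and at 36.3, 41.2, 38.7 and 38.8 RPKM in MZ. The groups did not overlap, and the log2 difference was -0.56 ± 0.09 (adjusted p = 0.000456), with -0.57 in WT and -0.56 in KO. Its call was kept in fits of WT alone and of KO alone as well, which of the 57 differences held otherwise only for Atp5sl against FO and for Ndufaf4 from T1 to T2. In T1, Atp5sl was at 50.2, 50.7, 52.5 and 43.9 RPKM, close to T2 and above MZ in every library.

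Cox7a2, the COX7A isoform used outside muscle, fell from 54.4, 59.7, 53.2 and 55.7 RPKM in T2 to 41.6, 43.2, 47.2 and 50.4 RPKM in MZ (-0.29 ± 0.05, adjusted p = 0.00162). Cox7a2l, which encodes the related supercomplex factor, moved the other way, from 79.9, 96.1, 70.8 and 92.9 RPKM to 114, 121, 98.5 and 118 RPKM (0.41 ± 0.10, adjusted p = 0.00523). In both genes every MZ library lay on its own side of the T2 libraries. Of the Cox7a2l windows, 10.6% match another gene, and none of Cox7a2 do.

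In complex I, Ndufa10, an accessory subunit, rose from 21, 21.4, 20.4 and 22.6 RPKM to 28.7, 28, 24.6 and 29.4 RPKM (0.37 ± 0.08, adjusted p = 0.00456). Ndufs4, an accessory subunit at the edge of the NADH-binding module, fell by 0.32 on the log2 scale (adjusted p = 0.00437), and Ndufs1, a core iron-sulfur subunit of that module, fell by 0.24 (adjusted p = 0.0082). The largest decrease of a complex I subunit gene was that of Ndufa5 (-0.41 ± 0.12, adjusted p = 0.0214), where the libraries overlapped and the call was lost in 4 of the fits without 1 library. Ndufa1 (-0.38), Ndufa9 (-0.20) and Ndufs8 (-0.25) fell as well.

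In complex II, Sdhb, the iron-sulfur subunit, fell from 28.6, 30.2, 28.9 and 30.6 RPKM in T2 to 23.8, 26.1, 21.7 and 26.1 RPKM in MZ (-0.27 ± 0.07, adjusted p = 0.00724). Sdha was at 62.3 RPKM in T2 and 65.9 RPKM in MZ and did not pass (0.08 ± 0.06). In complex III, Uqcrh, the hinge subunit, rose by 0.28 (adjusted p = 0.0271) and Uqcrb fell by 0.30 (adjusted p = 0.0221). In complex V, Atp5k, the e subunit, fell from 41.8, 45.9, 43.4 and 45.7 RPKM to 35.1, 33.7, 38 and 36.7 RPKM (-0.30 ± 0.06, adjusted p = 0.00282), and Atp5a1 fell by 0.22 (adjusted p = 0.0277). Atp5d, the δ subunit of the central stalk, rose by 0.37 (adjusted p = 0.0463), a call that was lost in 11 of the 16 fits without 1 library and was not kept after rescaling without immunoglobulin genes.

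The largest rise of a complex V gene concerned the c ring, the rotor in the membrane, whose subunit is encoded by Atp5g1, Atp5g2 and Atp5g3. The mature proteins of these genes are identical, and they differ in the import sequence that is removed. Atp5g2 (ENSMUSG00000062683, chr15:102662864-102672352, - strand) was at 37.6, 39.8, 27.8 and 48 RPKM (T1), 47.1, 47.8, 39.6 and 58.2 RPKM (T2), 84.1, 73.4, 58.8 and 77.4 RPKM (MZ), and 70.2, 57, 68.8 and 60.6 RPKM (FO). T1 was lowest and MZ highest, with overlap between T1 and T2 and between FO and MZ. From T2 to MZ it rose by 0.60 ± 0.18 (adjusted p = 0.0173) with no MZ library under the highest T2 library, and it was 0.42 ± 0.18 higher in FO, which did not pass (adjusted p = 0.135). The call was lost without the first KO library of T2 (0.47, adjusted p = 0.0698), the first WT library of MZ (0.55, adjusted p = 0.0599) or the second KO library of MZ (0.50, adjusted p = 0.0652).

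Atp5g3 was at 44.9 to 50.4 RPKM in MZ and 48.7 to 52.6 RPKM in T2 (-0.08 ± 0.08) and Atp5g1 stayed under 6.1 RPKM in all libraries, so the makeup of the c ring transcripts differed between subsets. Atp5g2 made up 42.2% ± 2.82 of their summed RPKM (T1), 46.5% ± 3.28 (T2), 57.7% ± 3.13 (MZ) and 54.9% ± 3.20 (FO; SD, n = 4). Its share was 42.1% to 50% in the T2 libraries and 54.2% to 61.8% in the MZ libraries. The summed level of the 3 genes went in the same order, with 90.1, 103, 127 and 117 RPKM. Stretches that match other genes make up 35.4% of the Atp5g2 windows, and the length the authors used for it (441 bases) is shorter than its principal transcript (731 bases), so the size of its share rests on that length.

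**Figure D4:**
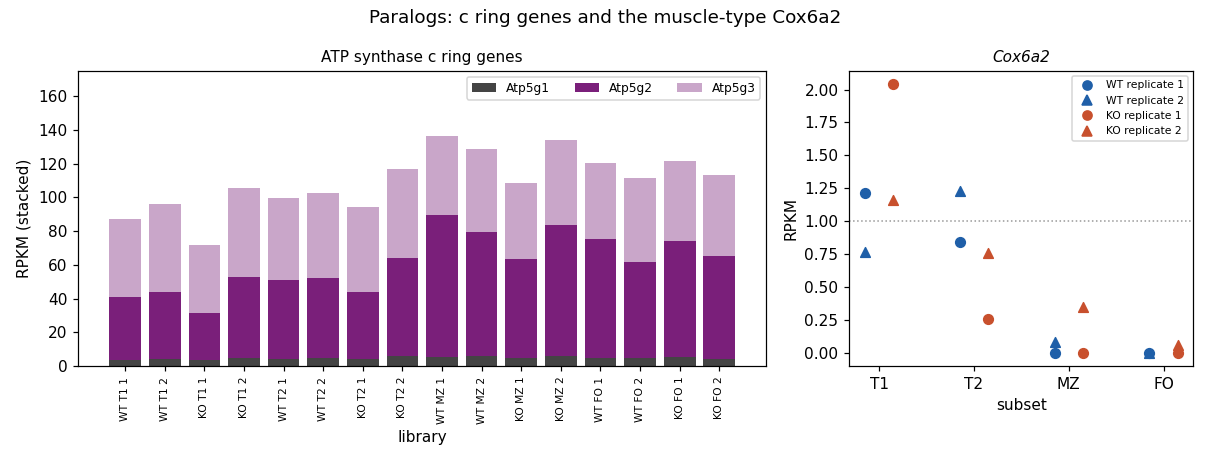
Left, RPKM of Atp5g1, Atp5g2 and Atp5g3 stacked for each library; right, RPKM of Cox6a2 by subset, with a dotted line at 1 RPKM. Atp5g2 takes 38.8% to 45.5% of the stack in T1 and 54.2% to 61.8% in MZ, and Cox6a2 is above 0.7 RPKM in all T1 libraries and under 0.4 RPKM in all MZ and FO libraries.

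From T2 to FO fewer genes passed: 2 of 85 rose (4.77% of all tested genes did) and 8 fell (5.04% did), with a median of -0.01 for the set and 0.0003 for all tested genes. None of these 10 calls was kept in all fits without 1 library. None passed without the first KO library of T2, the first WT library of FO or the first KO library of FO, and 1 passed without the first WT library of T2. FO libraries all lay above those of T2 in 5 genes (13% of all tested genes) and below in 14 (13.4%).

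The genes that fell were Ndufc2 (-0.33), Ndufs1 (-0.27), Ndufs4 (-0.33), Uqcrb (-0.42), Cox7a2 (-0.35), Cox7c (-0.27), Atp5c1 (-0.26) and Atp5f1 (-0.28). Cox7a2 had the smallest adjusted p (0.0131) and was at 41.3, 42.6, 45.8 and 45.2 RPKM in FO, under every T2 library. Uqcrb was at 26, 32.5, 33.4 and 34.7 RPKM in FO, also under every T2 library (adjusted p = 0.0256). Ndufs7, the core subunit at the last iron-sulfur cluster of complex I, rose from 16.7, 24.3, 20 and 26.1 RPKM to 28.1, 29.4, 31.2 and 29.3 RPKM (0.45 ± 0.11, adjusted p = 0.0371). Atp5d went from 30.5, 38, 31.2 and 43.7 RPKM to 54.4, 46.6, 55 and 47.3 RPKM (0.51 ± 0.13, adjusted p = 0.042).

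The T2 libraries enter both of the last comparisons, so the values are given side by side. The log2 differences of MZ and of FO from T2 were -0.24 and -0.27 for Ndufs1, -0.32 and -0.33 for Ndufs4, -0.30 and -0.42 for Uqcrb, -0.29 and -0.35 for Cox7a2, and 0.37 and 0.51 for Atp5d. These are the 5 genes that passed on both paths. Myeloid markers fell over the same steps: 11 of 14 tested markers were lower in FO and 6 lower and 1 higher in MZ than in T2, and their part in the values above was not tested.

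The direct comparison of the mature subsets, FO to MZ, gave 11 genes that were higher in MZ (19.9% of all tested genes were) and 8 that were lower (17.4% were). The median was 0.06 for the set and 0.04 for all tested genes. Without overlap, 16 genes were higher in MZ (25.3% of all tested genes) and 12 lower (21.7%). Without WT MZ replicate 2, 4 were higher and 4 lower. Calls kept whichever library was left out were those of Atp5sl, Uqcrc1, Ndufs7, Sdhb, Ndufaf4, Atp5f1, Atp5c1 and Cox6c, and the other 11 were lost in 3 to 10 of the 16 fits.

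Atp5sl differed most, with 53.1, 64.5, 57.5 and 61.9 RPKM in FO against 36.3, 41.2, 38.7 and 38.8 RPKM in MZ (-0.60 ± 0.09, adjusted p = 0.000328). Uqcrc1, a core subunit of complex III, was at 82.4, 77.3, 82.8 and 76.6 RPKM in FO and at 57.8, 58.9, 47.7 and 60.3 RPKM in MZ (-0.51 ± 0.10, adjusted p = 0.00297). For both genes the groups were well apart. Also lower in MZ were Ndufs7 (-0.46, adjusted p = 0.00749), Sdhb (-0.30, adjusted p = 0.00512), Cox6a1 (-0.45, adjusted p = 0.0199), the COX6A isoform used outside muscle, Ndufb7 (-0.38, adjusted p = 0.0283), Atp5a1 (-0.22) and Atp5k (-0.22).

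Higher in MZ was again Ndufaf4, at 4.84, 6.68, 6.22 and 7.17 RPKM in FO and 7.39, 8.93, 11.5 and 8.83 RPKM in MZ (0.52 ± 0.13, adjusted p = 0.00895). Atp5f1, the b subunit of the peripheral stalk, was at 24.8, 26.9, 26.8 and 28 RPKM in FO and 30.7, 34, 33 and 36.5 RPKM in MZ (0.33 ± 0.08, adjusted p = 0.00597). Of its windows, 11.8% match a pseudogene, and 8.21% of its exon bases are shared with genes on the opposite strand. Atp5c1, the γ subunit of the central stalk, was higher by 0.27 (adjusted p = 0.00399) and Cox6c by 0.34 (adjusted p = 0.00649). All FO libraries lay under all MZ libraries in these 4 genes. Ndufaf1, a factor for the membrane arm of complex I, was 0.48 higher (adjusted p = 0.0454) and Atp5s 0.45 higher (adjusted p = 0.0374). In both, every MZ library was above every FO library, for Atp5s by a narrow margin (6.26 RPKM at most in FO and 6.32 RPKM at least in MZ). Ndufa10 (0.24), Ndufb5 (0.28), Ndufc2 (0.30), Uqcrh (0.27) and Cox7b (0.25) complete the 11.

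The 7 genes whose promoters hold the NRF1 palindrome, printed above, did not move as a group. Ndufaf4 and Ndufaf5 rose from T1 to T2, Atp5g2 rose and Atp5k fell from T2 to MZ, and Ndufa11 passed in no comparison. In MZ against FO, Uqcrc1 (-0.51), Cox6a1 (-0.45) and Atp5k (-0.22) were lower and Ndufaf4 (0.52) was higher. Ndufaf5 (0.23) and Atp5g2 (0.19) did not pass there. Nrf1, the gene of the factor, was at 7.49, 7.36, 7.49 and 7.02 RPKM in FO and 4.65, 4.64, 4.28 and 4.78 RPKM in MZ (-0.62 ± 0.07, adjusted p = 3.72e-05).

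**Figure D5:**
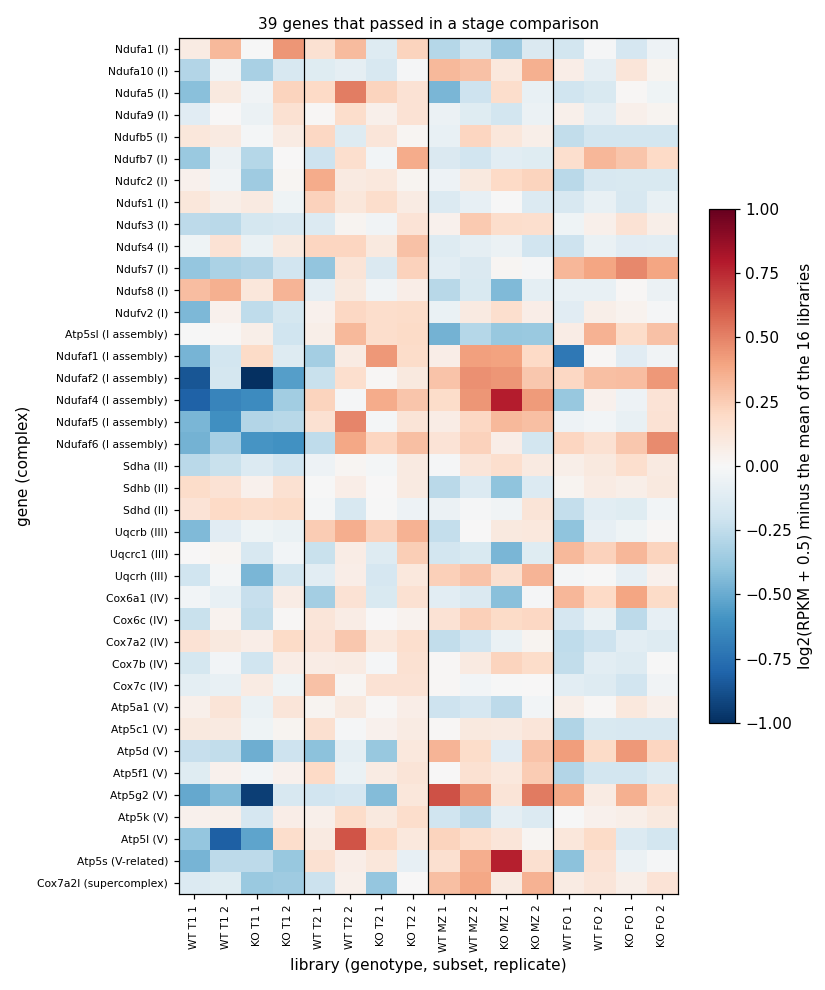
The 39 genes that passed in a stage comparison (y axis, complex in brackets) in the 16 libraries (x axis); colour is log2(RPKM + 0.5) minus the mean of the gene over all libraries, red for above and blue for below. The assembly factor genes Ndufaf2, Ndufaf4, Ndufaf5 and Ndufaf6 are lowest in T1, and Atp5sl is lowest in MZ.

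Across the 4 subsets, the highest mean fell in MZ for 32 genes, in T2 for 24, in FO for 20 and in T1 for 9, and the lowest in T1 for 37, FO for 23, MZ for 19 and T2 for 6. The spans were narrow: the ratio of the highest to the lowest subset mean had a median of 1.26, it was under 1.5 in 72 genes, and over 2 in Ndufaf4 (2.24) and Ndufaf2 (2.19) only. Atp5g2 (1.92) and Ndufaf6 (1.87) came next. The least variable genes over the 16 libraries included Atp5h (coefficient of variation 6.48%) and Ndufb10 (6.53%), and the most variable were Cox7a1 (36.4%), Ndufaf4 (32.2%) and Ndufaf2 (30.2%), against a median of 12.4%. Cox7a1 is among the lowest in level, where few reads add to the spread. By complex, where 62.2% of all tested genes passed at least once, the genes that did numbered 13 of 36 in complex I, 3 of 4 in complex II, 3 of 8 in complex III, 5 of 12 in complex IV and 7 of 15 in complex V, and 6 of the 8 assembly factors. Extremes of a complex in 1 comparison that did not pass included Uqcr11 (-0.15 from T1 to T2 and 0.34 from T2 to FO), Cox5b (-0.07) and Cox7a1 (0.52) from T1 to T2, Cox4i1 from T2 to MZ (0.31, adjusted p = 0.0532), Atp5j (-0.35, adjusted p = 0.0555), Ndufa5 (-0.37), Ndufaf1 (-0.30), Ndufaf3 (0.35) and Cox6a1 (0.33) from T2 to FO, and Ndufb4 (0.37) from FO to MZ. Genes that never passed included the catalytic ATP synthase gene Atp5b, the core complex I gene Ndufv1, the Rieske protein gene Uqcrfs1, the core protein gene Uqcrc2, and Cox5a, Cox5b and Cox6b1 of complex IV.

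Tissue-restricted forms of complex IV subunits were at or near 0, and their widely used counterparts were high. Cox4i2, the lung form of COX4, Cox7b2 and Cox8c were listed at 0 in all 16 libraries, and Ndufa4l2 (0.0355 RPKM) and Cox8b (0.0806 RPKM) were close to it. Over the 16 libraries, Cox4i1 was at 57.4 to 92.8 RPKM, Cox8a at 87.4 to 147 RPKM, Cox7b at 33.2 to 46 RPKM and Ndufa4 at 88.6 to 128 RPKM. Cox7a1 made up 1.11% to 5.19% of the summed COX7A level per library. Cox6a2, the heart and muscle form of COX6A, was below the limit of the set but differed between subsets. It was at 1.21, 0.765, 2.04 and 1.16 RPKM (T1), 0.844, 1.23, 0.253 and 0.757 RPKM (T2), 0, 0.0804, 0 and 0.346 RPKM (MZ), and 0, 0, 0 and 0.0613 RPKM (FO). T1 and T2 overlapped, and so did MZ and FO. These values rest on few reads, and 10.3% of the exon bases of Cox6a2 are shared with Itgad on the opposite strand. From T2 to MZ its log2 difference was -1.04 ± 0.25 (adjusted p = 0.00638), from T2 to FO -1.24 ± 0.25 (adjusted p = 0.0216) and from T1 to T2 -0.51 ± 0.25 (adjusted p = 0.158), on a scale with 0.5 RPKM added, which understates changes at this level. Cox6a1 was above 70 RPKM in all libraries, so that Cox6a2 never exceeded 2.48% of the pair.

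The comparison of KO with WT asked whether loss of miR-146a was accompanied by a different level of these genes. None of the 85 genes passed across the 4 subsets with limma, or with limma-voom on recovered reads, where 0.232% of all tested genes passed in either direction (0.168% higher and 0.064% lower in KO). At an unadjusted p under 0.05 there were 5 genes (5.88%, against 7.98% of all tested genes), and all were higher in KO: Uqcrq (0.40), Ndufb4 (0.32), Ndufaf1 (0.28), Ndufaf4 (0.24) and Uqcrb (0.16). The largest difference was that of Uqcrq, a small complex III subunit, at 12.2 RPKM in WT and 16.4 RPKM in KO (0.40 ± 0.12, adjusted p = 0.463). The 95% intervals of all 85 differences lay between -0.55 and 0.66, and 80 of them within ±0.5, so changes beyond 2-fold across the subsets were outside every interval. The median difference was 0.01, against 0.02 for all tested genes.

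Within single subsets 0 genes passed in T1 (0.04% of all tested genes did), T2 (0.048%), MZ (0.064%) and FO (0.04%). At an unadjusted p under 0.05 there were 0, 2, 1 and 0 genes in limma, against 3.51%, 3.37%, 1.65% and 0.919% of all tested genes. Intervals were wider, from -1.36 to 1.11 at most, and 83 to 85 of the 85 lay within ±1. Whether the step from T2 to MZ or to FO differed between genotypes was tested with the interaction term, and 0 genes passed in either (0.008% of all tested genes did, adjusted p = 1 for all 85), with 4 and 1 at an unadjusted p under 0.05 (1.66% and 0.983% of all tested genes). Lyrm7, which encodes an assembly factor of complex III and is not in the set, was the 1 gene of the related lists that passed between KO and WT (log2 difference 2.17). Whether loss of miR-146a itself underlies this difference was not tested. According to the paper, WT mice were purchased, while the KO line had been made in earlier work.

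Genes that serve the pathway around the subunits were read from lists, with counts in the same order of comparisons (T1 to T2, T2 to MZ, T2 to FO and FO to MZ). Of all tested genes, 16%, 22.8%, 4.77% and 19.9% rose and 9.94%, 19.6%, 5.04% and 17.4% fell in these comparisons, and the counts of each list are to be read against these shares. Of 32 tested assembly factors of complexes I to V outside the set, 3, 9, 1 and 5 rose and 0, 1, 2 and 0 fell. Bcs1l, which inserts the iron-sulfur protein into complex III, was at 5.57, 4.15, 5.92 and 5.91 RPKM in T2 and 8.92, 9.41, 9.02 and 9.06 RPKM in MZ (0.72 ± 0.10, adjusted p = 0.000224), without overlap. Nubpl, which carries iron-sulfur clusters to complex I, rose from T1 to T2 (0.55, adjusted p = 0.00896). Of 75 mitochondrial ribosomal protein genes, whose products translate the mitochondrially encoded subunits, 10, 5, 1 and 1 rose and 2, 12, 1 and 8 fell. The medians of the lists ranged from -0.13 to 0.20, against 0.0003 to 0.08 for all tested genes.

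Among 18 genes of cytochrome c and ubiquinone synthesis, 3, 7, 0 and 6 rose and 1, 2, 1 and 1 fell. Coq7, the hydroxylase late in ubiquinone synthesis, was at 6.87, 4.94, 4.96 and 4.05 RPKM in T1 and 1.83, 1.43, 1.58 and 1.83 RPKM in T2 (-1.38 ± 0.15, adjusted p = 0.000132). Adck3, a kinase-like regulator of the same synthesis, was at 14.4, 16.4, 12.3 and 16.5 RPKM in T2 and 29.9, 30.2, 23.2 and 28 RPKM in MZ (0.88 ± 0.09, adjusted p = 2.7e-05). Neither gene overlapped between the groups compared. Cycs, somatic cytochrome c, rose from T1 to T2 (0.34, adjusted p = 0.00349) and fell from T2 to MZ (-0.44, adjusted p = 0.00035).

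Of 10 carriers, 2, 2, 0 and 3 rose and 3, 1, 2 and 0 fell. Slc25a4, the ADP/ATP carrier of the inner membrane, stood out with 19.2, 22, 22.3 and 21.5 RPKM in FO and 49.1, 50.8, 45.5 and 49.8 RPKM in MZ (1.18 ± 0.07, adjusted p = 3.06e-07). It was also higher in MZ than in T2 (0.95 ± 0.07, adjusted p = 1.36e-06), so its difference was beyond 2-fold in one comparison and close to it in the other. Ucp2, an inner membrane carrier of the uncoupling family, fell from 143, 120, 130 and 125 RPKM in T1 to 82.8, 79.6, 91 and 78.2 RPKM in T2 (-0.64 ± 0.09, adjusted p = 0.000476), also without overlap.

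In the citric acid cycle and pyruvate dehydrogenase, 4, 4, 0 and 5 of 20 genes rose and 1, 4, 2 and 3 fell. Fh1, fumarase, was at 28.6, 30, 30.4 and 31.9 RPKM in T2 and 18, 21.7, 20.5 and 22.8 RPKM in MZ (-0.54 ± 0.07, adjusted p = 0.000112). Dlst, of the oxoglutarate dehydrogenase complex, rose over the same step (0.61, adjusted p = 1.08e-05), and Idh2 fell from T1 to T2 (-0.53, adjusted p = 0.000194). For mitochondrial DNA 2, 4, 2 and 5 of 15 genes rose and 0, 1, 0 and 2 fell, and for mitochondrial RNA 4, 3, 1 and 6 of 19 rose and 0, 2, 3 and 1 fell. Top1mt, the mitochondrial topoisomerase, rose from T2 to MZ (0.83, adjusted p = 0.00683). Tfam, which packages and transcribes mitochondrial DNA, rose from T1 to T2 (0.37, adjusted p = 0.00519) and fell from T2 to MZ (-0.35, adjusted p = 0.00406).

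Of 14 nuclear regulators of respiratory genes, 3, 3, 0 and 1 rose and 1, 6, 0 and 3 fell. Myc, a growth regulator, was at 17.5, 31.2, 8.6 and 29.7 RPKM (T1), 58.4, 68.4, 34.9 and 79 RPKM (T2), 221, 189, 58 and 214 RPKM (MZ), and 83.8, 33.5, 28.5 and 52.9 RPKM (FO). It rose from T1 to T2 (1.55 ± 0.51, adjusted p = 0.0477) and was higher in MZ than in FO (1.73 ± 0.51, adjusted p = 0.0218), with the KO replicate 1 library lowest in each subset. Sirt1 (-0.70, adjusted p = 0.00291), a deacetylase, and Gabpa fell from T2 to MZ (-0.45 ± 0.14, adjusted p = 0.0232). Immediate early genes varied widely within all subsets (summed 275 to 5064 RPKM), and their part in the values of Myc was not tested.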

How the data were processed

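The 16 RNA-Seq libraries of sorted splenic B-cells (4 subsets, 2 genotypes, 2 replicates) were used. The deposited values are RPKM per gene with replicates kept apart: the authors filtered single-end 100-base reads, placed them on mm10 by TopHat (at most 2 mismatches, unique hits only) and derived RPKM by Perl scripts. Versions of TopHat, DESeq and edgeR, which the authors name, were not given in the sources used here. Within a gene the values are whole multiples of that of 1 read, so reads were recovered (100% of 23194 genes above 0, within 0.01 reads).

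A single model of 8 groups was fitted to log2(RPKM + 0.5) by limma 3.58.1 (R 4.3.3) with a variance trend. The 12507 genes with a group mean over 1 RPKM entered, with Benjamini-Hochberg adjustment over these genes in each comparison. Limits were an adjusted p of 0.05 and 2-fold. Python 3.11.15, numpy 2.4.6 and matplotlib 3.10.9 were used otherwise. Windows of 100 bases of each GENCODE M21 transcript were matched to those of other genes with up to 2 mismatches. Over 10% of the windows matched in 13 of the 85 genes. Besides genes described above, these include Ndufs3 (26.6%), Cox7c (18.7%) and Cox6a1 (13%), which passed in a stage comparison. In 29 of the 85 genes, exon bases are shared with another gene. The script was tested on simulated data.

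Members and lists were chosen with earlier results of these data known. Named were the highest and lowest gene of each complex and of the factors in a stage comparison, paralogs, the c ring and complex II genes, genes next to the limit and the extremes of each list. Not every list extreme is printed. Other genes that passed, the most and least variable genes, Cycs, Tfam, Gabpa and Lyrm7 were named after their values were seen. Alternatives were pseudocounts of 0.1 and 1, no filter, median-ratio or quantile scaling, scaling without immunoglobulin genes, a replicate block, only the libraries compared, WT or KO alone, limma-voom on recovered reads and each library left out. Leaving out both T1 replicate 2 libraries, and scaling without immunoglobulin genes together with the block, were chosen after seeing the data. In the fits, scaling without immunoglobulin genes set the summed RPKM of all other genes equal between libraries. The rescaled sums per library used the immunoglobulin share of reads instead.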

Additional observations from a re-analysis of the deposited data

Results flagged for a closer look

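In 21 of 364 groups of 4 libraries (5.77%; chance alone gives about 5%), 1 library stood far from the others by Dixon's limit. The sum over complex IV was 820.593 RPKM in KO FO replicate 1, against 774 to 782 RPKM in the other FO libraries. KO MZ replicate 1 stood apart in Ndufa11 (6.76 RPKM, others 8.24 to 8.49), Ndufb2 (3.0 RPKM, others 2.02 to 2.19), Ndufb9 (43.7 RPKM, others 50.8 to 52) and Atp5o (20.4 RPKM, others 23.2 to 23.4). WT FO replicate 1 was the lowest in Ndufb5 (16 RPKM), Ndufc2 (22.9 RPKM), Ndufs6 (16.6 RPKM) and Atp5c1 (59.1 RPKM, others 65.3 to 65.7). In T1, KO replicate 1 was low in Ndufa2 (45.5 RPKM), Atp5d (28.9 RPKM) and Atp5k (35.9 RPKM), KO replicate 2 was high in Ndufb10 (35.4 RPKM), Ndufs5 (9.66 RPKM) and Uqcrq (20.04 RPKM, others 11.4 to 12.4), and WT replicate 1 was low in Ndufc1 (6.42 RPKM). Single libraries also stood apart in Ndufa7 (KO FO replicate 2, 19.5 RPKM), Ndufa9 (WT FO replicate 2, 32.6 RPKM), Ndufb10 (WT MZ replicate 2, 32.8 RPKM), Uqcrq (KO MZ replicate 2, 17.8 RPKM) and Atp5b (KO T2 replicate 2, 125 RPKM, others 115 to 115). Uqcrq, the gene with the largest difference between KO and WT, was thus far above the other libraries in 1 KO library of T1 and 1 of MZ.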

How the results depend on the processing

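Of the 57 stage differences that passed, 57 were kept at either pseudocount, 57 with the replicate block, 56 with limma-voom, 50 with median-ratio scaling, 47 with quantile normalization, 47 with scaling without immunoglobulin genes, 49 with that scaling and the block, 44 with no filter on low values, 50 without both T1 replicate 2 libraries, 36 with only the libraries compared, 14 in WT alone and 4 in KO alone, and none reversed. The last 3 have fewer samples. Counts are given as higher and lower. The shares of all tested genes under these settings are not given here, so the counts describe the set alone. From T1 to T2 (9 and 2), only the libraries compared gave 4 and 0, WT alone 3 and 0, KO alone 2 and 0, no T1 replicate 2 libraries 17 and 0. There, no filter gave 1 lower, median-ratio scaling 4 lower, and scaling without immunoglobulin genes 7 lower, with or without the block. From T2 to MZ (5 and 12), quantile normalization gave 13 higher, scaling without immunoglobulin genes 3 higher, that scaling with the block 21 lower, WT alone 6 lower, and KO alone 0 and 1. From T2 to FO (2 and 8), no filter gave 0 and 5, only the libraries compared 0 and 2, WT alone 0 and 0, KO alone 0 and 0, and the block 4 higher. From FO to MZ (11 and 8), no filter gave 7 higher, scaling without immunoglobulin genes 6 higher, WT alone 0 and 2, and KO alone 0 and 1. Except where fewer samples or genes entered, the cause was not tested. With 1 library left out, the counts ranged from 6 to 14 and 1 to 3 (T1 to T2), 2 to 10 and 6 to 13 (T2 to MZ), 0 to 6 and 0 to 9 (T2 to FO), and 4 to 11 and 4 to 10 (FO to MZ), and stayed at 0 and 0 for KO against WT.

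The replicate numbers are not said to mark a shared batch. Deviations of same-numbered libraries correlated at -0.36 to 0.45 over 28 pairs of groups (median 0.08), over 0.1 in 12, which did not meet the limit set for pairing. Between subsets of the same genotype, however, all correlations were positive, at 0.19 to 0.44 in KO and 0.08 to 0.45 in WT. Between genotypes they ran from -0.36 to 0.30. The stage comparisons treated all libraries as independent. The replicate block used the same term for both genotypes, so a pairing within each genotype was not modelled. Some measures did move with the number: replicate 2 was higher in all 8 groups in summed T and NK cell markers, Cd3e, C1qa, Lyz2 and Xbp1, and in 7 of 8 in the median gene of the set. Whether the numbers mark a shared batch was not tested. With the replicate block, 11 and 3 passed from T1 to T2, 7 and 13 from T2 to MZ, 4 and 10 from T2 to FO, and 12 and 9 from FO to MZ. With 2 libraries per group the precision is limited: the median 95% interval was ±0.21 on the log2 scale for a stage difference and ±0.30 for KO against WT in 1 subset.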
